A study of Homo sapiens with 6 samples.

Results

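The genes described here are the matrix metalloproteinases MMP1, MMP2, MMP3, MMP7, MMP9, MMP10, MMP13 and MMP14 and their tissue inhibitors TIMP1 and TIMP2, 10 genes out of the 20522 rows of each library table, chosen by symbol. They were measured by mRNA-seq in K1, a human cell line established from papillary thyroid carcinoma. All 6 libraries were from this 1 line after siRNA transfection, 3 from cells given the negative control siRNA (NC) and 3 from cells given an siRNA against NEAT1_2, the long transcript of the NEAT1 gene (si-NEAT1_2). The time between transfection and harvest for sequencing was not given in the sources used here. NEAT1 was not analysed here, so the groups rest on the labels alone, with no measure of the knockdown in these libraries. The study reported the knockdown by qRT-PCR in papillary thyroid carcinoma cells. A further deposited table holds a single value for each group, without replicates, and is called the group table here. Where a sentence gives 3 values for a group, they stand in the order of replicates 1, 2 and 3.

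Library totals ranged from 22798631 to 27066025 expected counts, which are estimated reads per gene and may be fractional. FPKM denotes these counts scaled for transcript length and library size, so that genes can be compared with each other, and CPM denotes counts scaled for library size only, after TMM scaling between libraries. Of the thyroid follicular markers, PAX8 had a mean of 135 FPKM, FOXE1 7.51 and TG 2.75, while TSHR and NKX2-1 were at 0.0517 and 0.0200 FPKM. The epithelial keratins KRT8 and KRT18 were at 1307 and 463 FPKM, while KRT19 and CDH1 were at 0.408 and 0.198. Summed endothelial markers stayed between 0.07 and 0.18 FPKM. Summed fibroblast markers were 25.2 to 29.8 FPKM in NC and 19.6 to 22.5 in si-NEAT1_2 libraries, mostly from LUM, with COL1A2, COL3A1 and DCN under 1 FPKM. Summed leukocyte markers were 12.0 to 13.5 FPKM in NC and 15.1 to 20.0 in si-NEAT1_2 libraries, nearly all from CD68, with PTPRC at a mean of 0.0483 and LYZ at 0.0667 FPKM. The part of these 2 marker sums in the differences below was not tested. On the first principal component of all genes, si-NEAT1_2 replicate 2 lay at 54.2 and NC replicate 2 at -44.5, with the other libraries between -15.5 and 16.3. Nothing in the labels says that replicates were separate cultures, so the p-values measure only the spread between these libraries, and in bulk RNA fewer cells with a transcript and less transcript per cell cannot be told apart.

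Matrix metalloproteinases are zinc-dependent endopeptidases that cut collagens and other proteins of the extracellular matrix, and they are studied in thyroid carcinoma for the part that matrix breakdown plays in invasion. Most are secreted as inactive proenzymes and become active when a propeptide is removed by plasmin, furin or another metalloproteinase. TIMPs bind the active site and block it, but TIMP2 also bridges pro-MMP2 to the membrane enzyme MMP14 at the cell surface, where the propeptide of MMP2 is cut. The transcript levels given here therefore say nothing of enzyme activity.

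Promoter windows around the transcription start from RefSeq on GRCh38.p14 were available for 4 of the 10 genes, MMP7, MMP10, MMP14 and TIMP1, and not for MMP1, MMP2, MMP3, MMP9, MMP13 or TIMP2. They were searched on both strands for the AP-1 element TGANTCA, the TATA box TATAAA, the GC box GGGCGG and the ETS core AGGAAG. The AP-1 element was found in MMP7 and MMP10, as in 7.71% of 35116 promoters of the same length, and the TATA box in the same 2 genes, as in 11.5% of promoters. The GC box was found in MMP14 and TIMP1, as in 45% of promoters, and the ETS core in MMP7 and TIMP1, as in 33.6%. All sites found are given here, for 2 genes at or near 0 counts (MMP7 and MMP10) and 2 abundant genes (MMP14 and TIMP1), with each element in capitals and read 5′ to 3′ on the gene's strand. None of these sites overlaps another of the elements searched. A match in the letters is a description of the sequence and measures no binding.
MMP7 AP-1, chr11:102530797-102530825, minus strand, element from -67 to -61 relative to the start: aaacactcaaaTGAGTCAcctatttccac
MMP7 TATA box, chr11:102530760-102530788, minus strand, from -30 to -25: ctgagaagctaTATAAAtttctgcagtca
MMP7 ETS core, opposite strand, chr11:102530899-102530927, minus strand, from -169 to -164: tacattgtgtgCTTCCTgccaataacgat
MMP7 second ETS core, opposite strand, chr11:102530875-102530903, minus strand, from -145 to -140: acgatgtaataCTTCCTcgttttagttaa
MMP10 AP-1, chr11:102780678-102780706, minus strand, from -67 to -61: aaacacatgcaTGAATCAtactgttggtg
MMP10 TATA box, chr11:102780642-102780670, minus strand, from -31 to -26: cattgtctctgTATAAAagaaaggccact
MMP14 GC box, chr14:22836508-22836536, plus strand, from -66 to -61: ggagggcactgGGGCGGggacggaggaga
TIMP1 GC box, opposite strand, chrX:47582290-47582318, plus strand, from -135 to -130: ctttcgtcggcCCGCCCcttggcttctgc
TIMP1 second GC box, opposite strand, chrX:47582380-47582408, plus strand, from -45 to -40: cgctgccacccCCGCCCctagcgtggaca
TIMP1 ETS core, chrX:47582338-47582366, plus strand, from -87 to -82: gtaatgcatccAGGAAGcctggaggcctg

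K1 cells had a narrow set of these transcripts, with 5 genes far above the rest. By mean FPKM over the 6 libraries the order of levels was MMP2 at 160.7, TIMP1 at 154.9, MMP14 at 88.4, TIMP2 at 45.5, MMP1 at 33.2, MMP9 at 0.283, MMP3 at 0.143, MMP13 at 0.0167, MMP10 at 0.0150 and MMP7 at 0. MMP2 and TIMP1 overlapped in their ranges over libraries, with MMP2 above in 5 of 6. MMP14 lay apart from both of its neighbours in every library. TIMP2 was above MMP1 in 6 of 6 libraries although the ranges touched, from 36.5 to 55.7 and from 28.8 to 36.8 FPKM. The gap between MMP1 and MMP9 was the one between transcripts above 10 FPKM and transcripts below 1 FPKM, and among the 5 lowest genes all neighbouring ranges overlapped. Of the 23 MMP genes listed in the tables, 8 had at least 1 FPKM in every library, 3 had at least 10 (MMP1, MMP2 and MMP14), and 10 had at most 3 counts in every library.

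**Figure D1:**
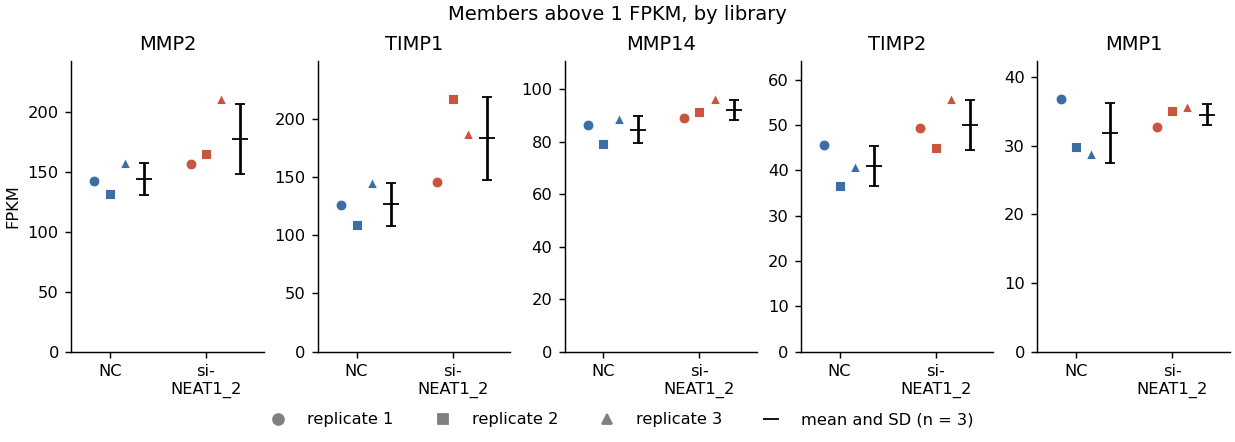
FPKM of the 5 abundant genes in each library (linear axes from 0), with NC in blue, si-NEAT1_2 in red, the replicate number by the shape of the point, and bars for the mean and SD of 3 libraries. TIMP1 spanned 108 to 217 FPKM, the widest spread of the 5, and MMP14 lay between 79.0 and 96.3 FPKM.

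The gelatinases MMP2 and MMP9 cleave denatured collagen and type IV collagen of basement membranes. MMP2 (ENSG00000087245, GRCh38 chromosome 16, 55389700 to 55506691, plus strand) was the most abundant metalloproteinase, at 143, 131 and 158 FPKM in the NC libraries, against 157, 165 and 211 FPKM in the si-NEAT1_2 libraries. The highest value was that of si-NEAT1_2 replicate 3, and the groups overlapped slightly in FPKM but not in CPM, where the highest NC value was 500.5 and the lowest si-NEAT1_2 value 520.7. Mean levels were 144 ± 13.2 FPKM in NC and 177 ± 29.2 FPKM in si-NEAT1_2 (SD, n = 3). The log2 fold change was 0.33 (SE 0.14, 95% interval 0.01 to 0.65) with an adjusted p of 0.198 (edgeR's quasi-likelihood test, adjusted by Benjamini-Hochberg), so the difference did not pass the test. Without si-NEAT1_2 replicate 3 it was 0.19, and it was 0.18 after trends with GC content and transcript length were removed in each library.

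MMP9 (ENSG00000100985, chromosome 20, 46008908 to 46016561, plus strand) was detected at a few counts only, with 11, 11 and 8 counts in the NC libraries, against 22, 22 and 25 in the si-NEAT1_2 libraries. All 3 si-NEAT1_2 libraries lay above all 3 NC libraries, and the sums were 30 and 69 counts. As levels, these were 0.173 ± 0.0351 FPKM in NC and 0.393 ± 0.0351 FPKM in si-NEAT1_2 (SD, n = 3). The exact binomial 95% intervals of single libraries, taken on counts before scaling between libraries and covering counting error only, reached up to 0.863 CPM in NC replicate 2 and down to 0.534 CPM in si-NEAT1_2 replicate 2, so single libraries of the groups overlapped within counting error. The fitted difference was the largest of the 6 genes tested, at a log2 fold change of 1.25 (SE 0.44, 95% interval 0.28 to 2.22), a fold of 2.38, with an adjusted p of 0.170 (edgeR's quasi-likelihood test, adjusted by Benjamini-Hochberg). MMP9 passed the filter on low counts with 5 of 6 libraries over its threshold of 0.397 CPM. NC replicate 3 was below it, at 0.316 CPM, so the 3 NC libraries alone would not have passed. MMP9 thus entered the tests through the si-NEAT1_2 libraries, where it was higher. Of its 2336 exon bases, 430 (18.4%) overlap the antisense gene SLC12A5-AS1, and the strand setting of the counting was not given in the sources used here.

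The membrane enzyme MMP14 (ENSG00000157227, chromosome 14, 22836557 to 22849027, plus strand), which carries the GC box shown above and activates pro-MMP2 at the cell surface, had 86.3, 79.0 and 88.7 FPKM in the NC libraries, against 88.9, 91.3 and 96.3 FPKM in the si-NEAT1_2 libraries. In FPKM the groups just missed each other, while in CPM they overlapped, with 324.5 as the highest NC value and 313.3 as the lowest si-NEAT1_2 value. Means were 84.6 ± 5.06 and 92.2 ± 3.79 FPKM (SD, n = 3). Its log2 fold change of 0.18 (SE 0.13, 95% interval -0.10 to 0.45) did not pass edgeR's quasi-likelihood test (Benjamini-Hochberg adjusted p = 0.382), and it was -0.00065 after the correction for GC content and length, so that it had no direction that held under both scalings.

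TIMP2 (ENSG00000035862, chromosome 17, 78852977 to 78925387, minus strand) is the inhibitor that also takes part in MMP2 activation. It had 45.5, 36.5 and 40.8 FPKM in the NC libraries, against 49.2, 44.9 and 55.7 FPKM in the si-NEAT1_2 libraries. The groups overlapped in FPKM at NC replicate 1 and si-NEAT1_2 replicate 2, but not in CPM, where they were separated by 155.3 and 165.3. Mean levels were 40.9 ± 4.51 and 49.97 ± 5.44 FPKM (SD, n = 3). The log2 fold change was 0.34 (SE 0.13, 95% interval 0.05 to 0.64) with an adjusted p of 0.177 (edgeR's quasi-likelihood test, adjusted by Benjamini-Hochberg). Of 5633 exon bases, 367 overlap an antisense gene (AC022966.1) and 198 overlap CEP295NL on the same strand.

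TIMP1 (ENSG00000102265, chromosome X, 47582313 to 47586789, plus strand), the soluble inhibitor whose promoter window held the 2 GC boxes above, had the widest range of the abundant genes. The gene start given here, from GENCODE, lies upstream of the second GC box and the ETS core, whose distances are from the RefSeq start. It had 126, 108 and 145 FPKM in the NC libraries, against 146, 217 and 187 FPKM in the si-NEAT1_2 libraries. All 3 si-NEAT1_2 values were above all 3 NC values, but by little at the border, since NC replicate 3 was at 145.01 and si-NEAT1_2 replicate 1 at 145.91 FPKM. Mean levels were 126.5 ± 18.3 and 183 ± 35.7 FPKM (SD, n = 3). The log2 fold change was 0.61 (SE 0.18, 95% interval 0.21 to 1.01), a fold of 1.52, with an adjusted p of 0.170 (edgeR's quasi-likelihood test, adjusted by Benjamini-Hochberg). This value moved with single libraries and with the correction. It was 0.41 without si-NEAT1_2 replicate 2, which stood apart over all genes, 0.76 without si-NEAT1_2 replicate 1, where the adjusted p was 0.0492 at a fold still under 2, and 0.18 after the correction for GC content and length. Its transcript, at 1095 bases and 57.9% GC, is the shortest of the 6 genes tested.

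MMP1 (ENSG00000196611, chromosome 11, 102789920 to 102798160, minus strand), the interstitial collagenase that cuts fibrillar collagen, had 36.8, 29.9 and 28.8 FPKM in the NC libraries, against 32.8, 35.1 and 35.7 FPKM in the si-NEAT1_2 libraries. NC replicate 1 was above all 3 si-NEAT1_2 libraries, so the groups overlapped. Means were 31.8 ± 4.36 and 34.5 ± 1.53 FPKM (SD, n = 3). The log2 fold change was 0.18 (SE 0.14, 95% interval -0.13 to 0.49) with an adjusted p of 0.424 (edgeR's quasi-likelihood test, adjusted by Benjamini-Hochberg). It ranged from 0.11 without NC replicate 3 to 0.29 without NC replicate 1.

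The stromelysins MMP3 and MMP10, which degrade proteoglycans and activate other proenzymes, were close to the limit of detection. MMP3 (ENSG00000149968) had 5, 17 and 2 counts in the NC libraries, against 8, 2 and 8 in the si-NEAT1_2 libraries, with the highest count in NC replicate 2 and the lowest in both groups. MMP10 (ENSG00000166670) had 1 count in NC replicate 3, 3 counts in si-NEAT1_2 replicate 1 and 0 in the other 4 libraries. These genes share sequence, with 59 of the 2047 stretches of 50 bases in MMP3 transcripts also found in MMP10, the only such pair among 45 pairs of the 10 genes, so counts of either gene could have been split between them.

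The collagenase MMP13 (ENSG00000137745) had 1 count each in NC replicates 1 and 2 and in si-NEAT1_2 replicate 2, and 0 in the other 3 libraries. Matrilysin, MMP7 (ENSG00000137673), which lacks the hemopexin domain of the other secreted members, had 0 counts in all 6 libraries. A count of 0 allows up to 0.111 to 0.132 CPM at the depth of these libraries, taking 3 counts as the limit. No difference between the groups was detectable at this depth for MMP3, MMP7, MMP10 or MMP13, which did not pass the filter on low counts. When MMP3 was fitted without the filter, its log2 fold change was -0.40 with an adjusted p of 0.844 in edgeR's quasi-likelihood test.

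**Figure D2:**
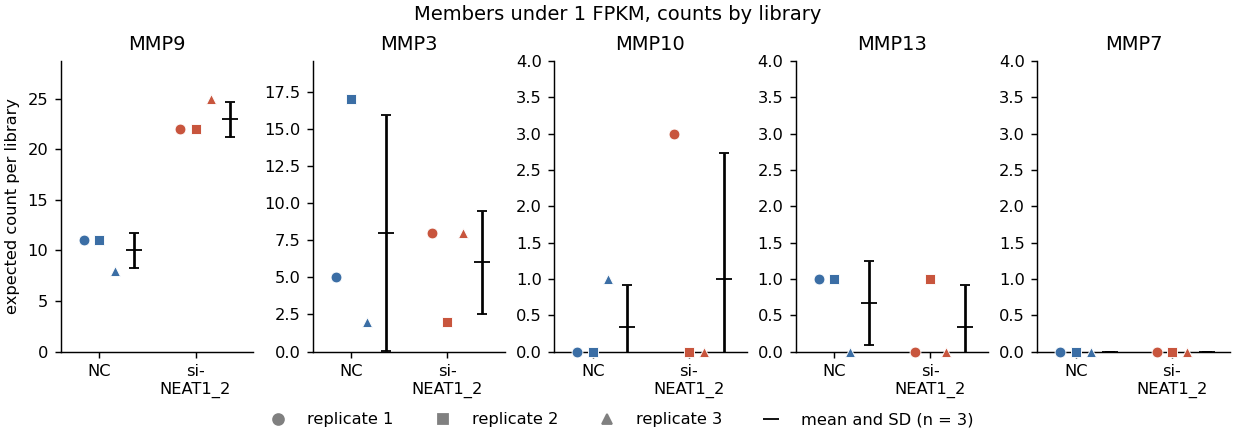
Expected counts of the 5 low genes in each library (linear axes from 0, the same scale for MMP10, MMP13 and MMP7 and other scales for MMP9 and MMP3), with NC in blue, si-NEAT1_2 in red, and bars for the mean and SD of 3 libraries, ended at 0. In MMP9 the 3 NC libraries sit at 8 to 11 counts and the 3 si-NEAT1_2 libraries at 22 to 25, while in MMP3, MMP10 and MMP13 the groups overlap and MMP7 is at 0 throughout.

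Side by side, 6 of the 10 genes could be tested, and 0 of them were called higher or lower at a fold change of 2 or more with an adjusted p under 0.05. The background over all 13109 genes tested was 0% in either direction, where edgeR's quasi-likelihood test gave no adjusted p below 0.0659. DESeq2, which gave MMP9 no adjusted p, and limma also called 0 of the 6. Before adjustment, 4 of the 6 (MMP2, MMP9, TIMP1 and TIMP2) had a p under 0.05 and were higher in si-NEAT1_2 libraries, and 0 were lower, against 11.2% higher and 12.9% lower over all genes. With a fold change of 2 or more added to the unadjusted p, 1 of the 6, MMP9, was higher and 0 were lower, against 0.664% higher and 0.961% lower over all genes. Without NC replicate 3, 0 of the 6 passed this rule, and after the correction for GC content and length MMP9 had a fold under 2. MMP9 also entered all these counts through the si-NEAT1_2 libraries, since the NC libraries alone did not meet the filter on low counts. The same 4 genes as before did not overlap in CPM between the groups, against 15.4% of all genes in that direction. For each of these 4 genes, the two-sided exact permutation test of log2 CPM gave 0.10, the smallest p that 3 libraries against 3 allow, and for MMP1 and MMP14 it gave 0.30. All 6 log2 fold changes were above 0, that of MMP14 not after the correction for GC content and length, with a median of 0.34, beside a median of 0.009 and 50.9% above 0 over all genes, and the other 4 members have no part in these values. The genes were chosen with earlier results of these data known, so these counts beside all genes are a description and not a test.

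The labels carry a library code of undefined meaning, with 3, 2 and 2 for NC replicates 1 to 3 and 4, 2 and 3 for si-NEAT1_2 replicates 1 to 3, and differences were also taken within the codes that held both groups. In log2 CPM, TIMP1 differed by 0.94 within code 2 and 0.60 within code 3, MMP9 by 1.28 and 1.32, and TIMP2 by 0.36 and 0.33. MMP2 differed by 0.27 and 0.53, and MMP14 by 0.28 and 0.20. MMP1 had no common direction, at 0.41 within code 2 and -0.02 within code 3. Each difference rests on 1 si-NEAT1_2 library, replicate 2 in code 2 and replicate 3 in code 3, without a measure of spread. Code 4 held only si-NEAT1_2 replicate 1, so the code and the group cannot be told apart there. That library, left out of these differences, had the lowest CPM of the si-NEAT1_2 libraries for each of these genes.

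**Figure D3:**
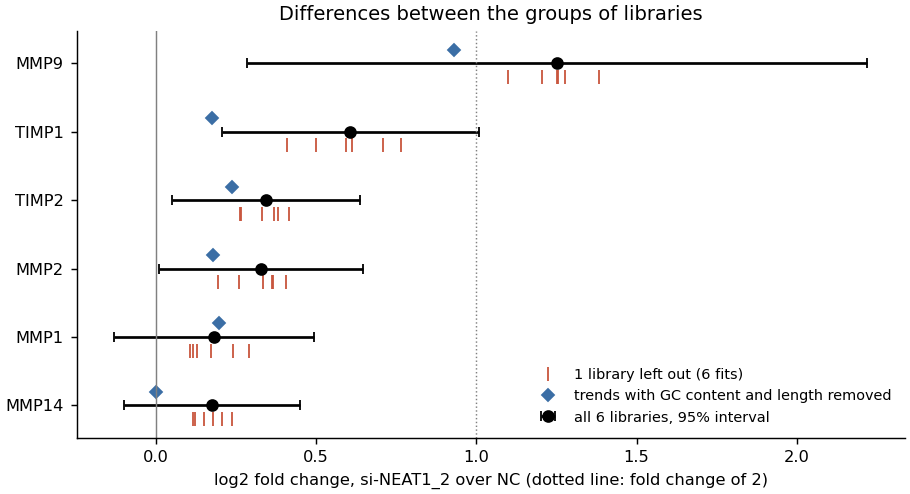
Log2 fold change of si-NEAT1_2 over NC for the 6 genes tested, from edgeR, with 95% intervals from 6 libraries (black), the values with 1 library left out (red ticks) and the values after removal of GC content and length trends (blue diamonds). MMP9 has the widest interval, from 0.28 to 2.22, and the corrected value of TIMP1 lies at 0.18, left of its interval.

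MMP2, MMP14 and MMP1 kept the same order across the libraries. The ratios with TIMP1 varied more than that of MMP2 to TIMP2. MMP2 made up 53.6% to 61.4% of the summed FPKM of the 8 metalloproteinases, MMP14 28.0% to 32.8% and MMP1 10.4% to 13.8%, with every other one at no more than 0.154%. The ratio of MMP2 to TIMP2 levels was 3.53 ± 0.372 in NC and 3.54 ± 0.315 in si-NEAT1_2 libraries (SD, n = 3), a difference smaller than the spread. The ratio of MMP14 to TIMP2 was 1.89, 2.16 and 2.18 in the NC libraries, against 1.81, 2.03 and 1.73 in the si-NEAT1_2 libraries, with overlapping groups. For MMP1 to TIMP1, the collagenase to its soluble inhibitor, the ratio was 0.292, 0.276 and 0.199 in NC and 0.225, 0.162 and 0.191 in si-NEAT1_2, again overlapping. The ratio of TIMP1 to TIMP2 was highest in si-NEAT1_2 replicate 2, at 4.83, and lay between 2.77 and 3.56 in the other 5 libraries.

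Other genes of this system were counted in 5 lists, with 52 of 61 genes tested and 0 called in either direction. The lists too were chosen with earlier results of these data known. Over all 5 lists, 25% of the genes tested had an unadjusted p under 0.05, close to the 24.1% over all genes. The background for each list below is 11.2% higher and 12.9% lower at this rule, with a median log2 fold change of 0.009. Among other MMPs, 8 of 15 were tested, 1 had an unadjusted p under 0.05 in the higher and 1 in the lower direction, and the median log2 fold change was 0.34. The most abundant were the membrane enzymes MMP24 at 7.55 FPKM with a log2 fold change of 0.02, MMP16 at 3.33 FPKM with -0.65 and MMP15 at 3.02 FPKM with 0.35, where MMP16 had an adjusted p of 0.172 in edgeR's quasi-likelihood test. Even the highest of these lay well under MMP1.

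Among other inhibitors and clearance genes, 6 of 6 were tested, 0 had an unadjusted p under 0.05, and the median was 0.04. TFPI2, a serine protease inhibitor deposited in the matrix, was at 25.9 FPKM with a log2 fold change of 0.20. LRP1, the endocytic receptor that takes up metalloproteinases, was at 23.2 FPKM with -0.30. TIMP4 was at 1.87 FPKM with 0.54, so TIMP1 and TIMP2 were the only TIMPs above 10 FPKM.

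Activation and cell surface partners had 11 of 12 genes tested, 4 with an unadjusted p under 0.05 in the higher direction and 1 in the lower, and a median of 0.33. The TIMP1-binding tetraspanin CD63 was at 588 FPKM with a log2 fold change of 0.34, the metalloproteinase inducer BSG at 428 FPKM with 0.39 and the hyaluronan receptor CD44 at 240 FPKM with -0.08.

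Of transcription factors with sites in MMP promoters, 15 of 15 were tested, 2 had an unadjusted p under 0.05 in the higher direction and 0 in the lower, and the median was 0.07. The AP-1 subunits FOSL1 and JUN were at 136 and 68.4 FPKM with log2 fold changes of 0.17 and -0.02, and ETS1 was at 63.7 FPKM with -0.24. In the ADAM and ADAMTS proteases, 12 of 13 genes were tested, 1 had an unadjusted p under 0.05 in the higher and 3 in the lower direction, and the median was -0.16. The abundant sheddases ADAM15, ADAM9 and ADAM10 were at 91.3, 83.7 and 25.3 FPKM with log2 fold changes of 0.14, -0.47 and -0.51. Of the 12 log2 fold changes, 8 were below 0 and 4 above, where 50.9% of all genes were above 0.

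The group table gave other levels for the same genes. MMP3 was at 0.41 FPKM in its NC column and 22.3 FPKM in its si-NEAT1_2 column (15 and 892 counts), a ratio of 54.4, where no library had over 0.37 FPKM. MMP1 was at 7.12 and 47.2 FPKM, a ratio of 6.62, and MMP10 at 0.217 and 0.873 FPKM (5 and 28.7 counts), a ratio of 4.03. TIMP2 was at 102 and 36.9 FPKM, 2.77 times lower in the si-NEAT1_2 column, the direction opposite to that of the libraries.

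The other genes were within 2 times of each other in its columns. MMP9 had 1.99 and 3.65 FPKM, a ratio of 1.83, and TIMP1 had 412 and 608 FPKM, a ratio of 1.47. MMP14 had 402 and 363 FPKM, a ratio of 0.903, and MMP2 had 48.6 and 36.9 FPKM, a ratio of 0.760, both lower in the si-NEAT1_2 column where the library means were higher. MMP7 was listed at 0.0167 FPKM in the NC column and MMP13 at 0.02 FPKM in the si-NEAT1_2 column, each with 0 in the other column. Of the 8 genes with at least 0.1 FPKM in a column, 3 were at least 2 times higher and 1 at least 2 times lower in the si-NEAT1_2 column, where the table as a whole had 5.47% of 14003 genes higher and 19% lower. With 1 value per group these differences have no replicate check.

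Each column of the group table also lay away from the libraries of the same label. All 8 of these genes were outside the range of the 3 NC libraries in the NC column, 6 above and 2 below, and all 8 were outside the range of the 3 si-NEAT1_2 libraries in the other column, 6 above and 2 below. The background was high, since 85.4% of genes were outside in the NC column and 79.4% in the si-NEAT1_2 column. In the NC column, MMP14 was 4.75 times, TIMP1 3.26 times and TIMP2 2.50 times the mean of the libraries, while MMP2 was 2.96 times and MMP1 4.47 times lower. By at least 2 times, 8 of 8 genes were off the NC libraries and 6 of 8 off the si-NEAT1_2 libraries, against 18.3% of genes higher plus 22.4% lower for NC and 14.7% higher plus 28% lower for si-NEAT1_2. MMP14 held 87.3% of the summed FPKM of the 8 metalloproteinases in the NC column and 76.6% in the si-NEAT1_2 column, the place that MMP2 had in every library. The ratio of MMP2 to TIMP2 was 0.475 and 1.001 in the columns, below its values in all 6 libraries. Both column totals, 17678761 counts for NC and 19579897 for si-NEAT1_2, were below the smallest library total of 22798631. How the columns were made, and whether from these libraries at all, was not given in the sources used here.

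**Figure D4:**
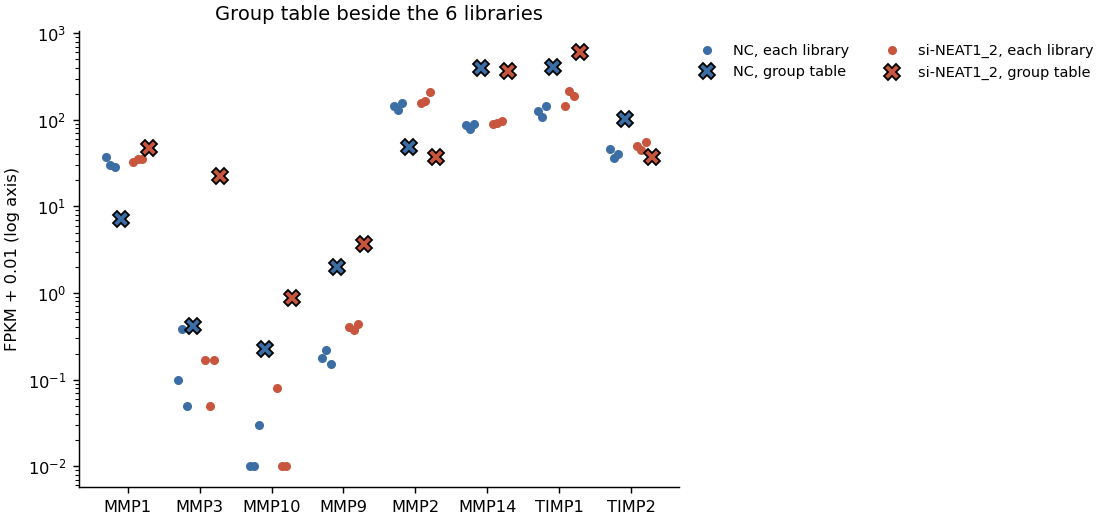
FPKM plus 0.01 (log axis) of the 8 genes with at least 0.1 FPKM in a group table column, with each library as a point and the group table value as a cross, NC in blue and si-NEAT1_2 in red. The si-NEAT1_2 cross of MMP3, at 22.3 FPKM, lies far above its library points, which do not exceed 0.16 FPKM, and the MMP2 crosses lie below all 6 of its libraries.

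Of the 10 genes, 5 lie in the cluster of MMP genes on chromosome 11, which spans 435.2 kb of GRCh38 from 102520508 to 102955734 in GENCODE release 29, with 9 genes on the minus strand. In this order the genes are MMP7, MMP20, MMP27, MMP8, MMP10, MMP1, MMP3, MMP12 and MMP13. In the libraries only MMP1 was above 1 FPKM, and the other 8 genes were under 1 FPKM in every library, although MMP10 and MMP3 are its neighbours on either side. In the group table MMP3 was also above 1 FPKM in the si-NEAT1_2 column, and the 3 genes with a ratio of at least 2 in the higher direction, MMP10, MMP1 and MMP3, are adjacent to each other in this order. The rest of the cluster had at most 0.02 FPKM in both columns, so only these 3 genes were high enough for a ratio. MMP10 rested on 5 and 28.7 counts and shares sequence with MMP3.

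**Figure D5:**
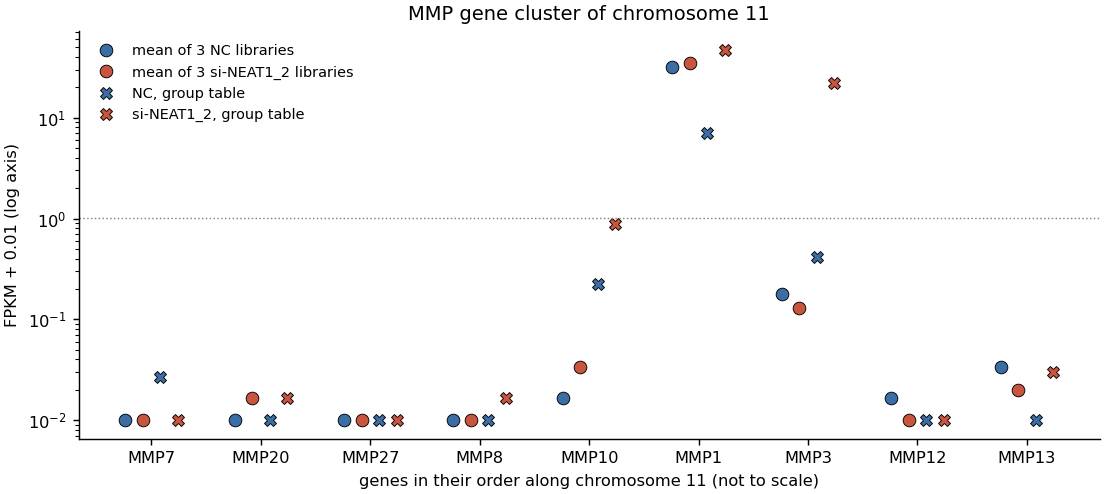
FPKM plus 0.01 (log axis) of the 9 MMP genes of the chromosome 11 cluster in their order along the chromosome, with circles for the means of 3 libraries and crosses for the group table, NC in blue and si-NEAT1_2 in red. The dotted line marks 1 FPKM, above which lie MMP1 in all 4 values and MMP3 in the si-NEAT1_2 column of the group table.

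The genes with the most similar profiles over the 6 libraries were listed as a description, from Pearson correlations of log2 CPM over the 9469 genes (9470 for MMP9) whose average log2 CPM was 3 or more. The closest were RELA (r = 0.996) and LTBP4 (0.992) for MMP2, GSK3A (0.998) and AUP1 (0.997) for MMP14, and FAM89B (0.999) and CST3 (0.998) for TIMP1. TIMP2 was closest to PI4K2A (0.997) and KRT80 (0.994), MMP1 to CHMP7 (0.990) and FADS2 (0.984), and MMP9 to HTRA1 (0.979) and FUK (0.976). The points are the same 6 libraries for every gene, and genes of a library share its depth, base composition and group. In all, 16.1% of genes had r over 0.9 with TIMP1 and 11.1% with MMP14, 3.19% with TIMP2, 2.57% with MMP2, 1.19% with MMP1 and 0.982% with MMP9.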

How the data were processed

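The data were 6 mRNA-seq libraries of K1 cells, 3 NC and 3 si-NEAT1_2, grouped by their labels, and 1 group table. The study's methods name oligo(dT) enrichment, rRNA removal, TopHat2 and RSEM, while the submitters' processing notes name fastp 0.18.0, Bowtie2 2.2.8, HISAT2, StringTie 1.3.1 and GRCh38. The authors deposited expected counts per gene, not normalized, and FPKM values, which they scaled for transcript length and library size. Between 9.19% and 9.61% of the counts per library were not whole. In the group table, 89.2% of the NC counts were whole multiples of 1/3 (tolerance 0.01), and the column totals were 17678761 (NC) and 19579897 (si-NEAT1_2) counts. The number of columns left unmapped was 0.

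Expected counts were rounded, filtered with filterByExpr (13109 genes), scaled by TMM and tested over all genes with edgeR 4.0.16 in R 4.3.3 (quasi-likelihood test, Benjamini-Hochberg adjustment, call at a fold change of 2 or more with an adjusted p under 0.05). Alternatives used DESeq2 1.42.0 and limma 3.58.1 on log2(FPKM + 1) and log2(FPKM + 0.1), other normalizations and filters, a replicate block, the library code, splines of GC content and length with 5 degrees of freedom, and the omission of each library. The fits were tested on simulated data. Single values were compared with exact permutation tests. Positions and transcripts came from GENCODE release 29. The genes and lists were chosen with earlier results of these data known. All 10 genes were named, of each list the 3 with the highest mean FPKM plus any called, and for each gene tested the 2 most similar genes. Values of 3 genes of the lists and markers are not reported here.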

Additional observations from a re-analysis of the deposited data

How the results depend on the processing

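The direction, and the absence of a call at a fold change of 2 or more with an adjusted p under 0.05, held for MMP1, MMP2, TIMP1 and TIMP2 in all 17 alternatives and for MMP9 in the 16 that kept it, since at least 10 counts in every library removed MMP9. Without si-NEAT1_2 replicate 1, the adjusted p of TIMP1 was 0.0492 in edgeR's quasi-likelihood test, and its fold under 2 kept it from a call. In the same fit, 213 of 13312 genes were higher and 398 lower at an adjusted p under 0.05 and any fold change. MMP14 held in 15 and turned to a log2 fold change of -0.00065 after the correction for GC content and length and to -0.0015 with the replicate block added, and the cause was not tested. With 1 library left out, log2 fold changes ranged from 0.11 to 0.29 for MMP1, 0.19 to 0.41 for MMP2, 1.10 to 1.38 for MMP9, 0.12 to 0.24 for MMP14, 0.41 to 0.76 for TIMP1 and 0.26 to 0.42 for TIMP2. In DESeq2, the adjusted p of TIMP1 was 0.0524 and MMP9 had none, so that MMP9 could not be called there. On log2(FPKM + 1) the difference of MMP9 was 0.25, because the pseudocount exceeds its levels, so that no call was possible there either.

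Over all genes, 0 were called in either direction. With no filter 9 were higher and 9 lower, with DESeq2 15 and 45, after the correction for GC content and length 1 and 3, and at an unadjusted p and a fold change of at least 2, 87 and 126. Scaling by library size alone called 1 gene lower and moved the median of all log2 fold changes from 0.009 to -0.05, and limma on log2(FPKM + 0.1) called 1 gene lower. Leaving out 1 library gave 0 to 32 higher and 0 to 184 lower, with 32 and 184 without si-NEAT1_2 replicate 1. At an unadjusted p and a fold change of at least 2, 1 of the MMPs and TIMPs, MMP9, was higher, and in every other alternative 0 of them and 0 genes of the lists were called. The study's methods mention 3 pairs of samples, without saying whether the replicate numbers mark them. After each group's mean was subtracted, log2 CPM of same-numbered libraries correlated at -0.26, -0.34 and -0.0087. With 3 libraries per group, these correlations cannot decide whether the samples were paired. With the replicate block, the log2 fold change was 0.59 for TIMP1, 1.26 for MMP9, 0.32 for MMP2 and 0.35 for TIMP2, and 0 genes were called.

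By the group table, 3 genes were higher and 1 lower by FPKM and by CPM, and 2 were higher and 1 lower on log2(FPKM + 1), where the log2 ratio of MMP10 was 0.62 in place of 2.01 and that of MMP3 4.05 in place of 5.77. By CPM, which is not per length, MMP14 ranked 2, TIMP2 3 and TIMP1 4. Depth limits MMP3, MMP7, MMP10 and MMP13, with at most 17 counts, and the precision of MMP9.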
